A study of Mus musculus with 24 samples.

Results

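Expression of 9 genes of homocysteine, methionine, folate and propionate metabolism was followed in the hypothalamus of 24 adult male F2 mice. The genes are *Cbs*, *Cth*, *Ahcy*, *Mat2a*, *Mtr*, *Mtrr*, *Shmt1*, *Mut* and *Pcca*, and all 9 were among the 13998 genes with expression values. They were taken from a list of names drawn up with results of these libraries known. *Cbs* was selected on its genotype difference in these same libraries, *Mut* on its position in the Chr 17 segment and its annotation to food intake, and the other 7 genes as neighbours of both in metabolism. The genotype contrast of the 9 genes is therefore given as a description, with no test. Tests are given for measures that did not enter the choice, namely the intake of the mice, their study number and the covariation between mice. The genotype contrast is also tested for other genes of these pathways, for markers and for genes near *Cbs* and *Mut*. The gene lists were chosen with earlier results of these data known, and the study had reported *Rsph1*, *Hsf2bp* and *Pde9a* from the same libraries. These tests are therefore not independent of earlier results. Relations to library totals were tested after the data were seen.

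Homocysteine stands at a branch point of sulfur metabolism. Cystathionine beta-synthase (*Cbs*) commits it to cysteine, with cystathionine gamma-lyase (*Cth*) catalysing the next step, and both enzymes can also release hydrogen sulfide. Alternatively, methionine synthase (*Mtr*) returns it to methionine with a methyl group from folate and with cobalamin as cofactor. Cobalamin also serves methylmalonyl-CoA mutase (*Mut*), the last enzyme on the route from propionyl-CoA to succinyl-CoA, so that both branches depend on the same vitamin. In adult brain *Cbs* is known chiefly as an enzyme of astrocytes.

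The mice descended from 1 B6.CAST-17.1 congenic male mated to C57BL/6J females, and were non-recombinant across the Chr 17 subcongenic segment. Of these, 12 *cast/cast* mice carried CAST/EiJ alleles on both copies of the segment and 12 *b6/b6* mice carried C57BL/6J alleles, while the rest of the genome was *b6/b6* in both groups. All had chosen for 10 d between a diet of carbohydrate with protein (C/P) and one of fat with protein (F/P), were returned to chow, and were sampled, fasted, about 48 h after the same diets were given again. The study picked *cast/cast* mice at the high end and *b6/b6* mice at the low end of C/P intake, so genotype and intake cannot be told apart between the groups, and C/P intake ranged from 77.8 to 106.6 kcal in *cast/cast* and from 27.4 to 41.0 kcal in *b6/b6* mice.

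Each mouse gave 1 library of short 3′ tags with 7754202 to 13082873 aligned tag hits. Values are normalized counts, that is tag hits divided by the size factor of the library. A transcript yields 1 tag whatever its length, so levels of different genes can be set side by side without a correction for length. Of the 24 libraries, 4 stood apart by a low median Spearman correlation to the others. The limit lay 3 scaled median absolute deviations below the typical library, with the scaling that matches a standard deviation under normality. The 4 libraries had values of 0.872 to 0.923, and the others had 0.933 to 0.963. The libraries that stood apart were those of *b6/b6* mice 6 and 12 and *cast/cast* mice 4 and 6, with study numbers of 15 to 72. The median study number was 269.5 in *b6/b6* mice and 120.5 in the *cast/cast* animals. Mice 7 and 9 of the *b6/b6* group, with study numbers 70 and 41, did not stand apart. For several genes the genotype difference is given with and without the 4 libraries that stood apart. Of the hypothalamus markers, 8 of 9 were detected and *Otp* was not listed, and their summed level ran from 6616 to 27406 in *b6/b6* mice and from 3052 to 26985 in the *cast/cast* animals.

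By design of the assay, a tag starts at the 3′-most CATG of its transcript. Which tags the authors' software counted for each gene is not given in the sources used here. From GENCODE transcripts matched to the deposited RefSeq IDs, 9 distinct tags of 27 bases were predicted for the 9 genes, and none of these sequences occurred in a transcript of any other annotated gene. The tags of *Cbs* and *Mut*, the members that lie in the segment, and those of *Mtrr* and *Pcca*, whose counts moved most closely with the libraries' totals along with *Cbs*, are shown with the CATG site in capitals.

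*Cbs*: CATGaccctgcttagcccactcctcac
*Mut*: CATGattattgttttctattttaaaga
*Mtrr*: CATGataaaccctccctgttgtgtata
*Pcca*: CATGgtagcagaaggtcaggaaatctg

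In GRCm38 coordinates the *Cbs* tag lay at chr17:31612729-31612755 on the minus strand, in the 3′ UTR, 133 or 116 bases from the end of the transcript depending on the isoform, and all 3 deposited *Cbs* transcripts shared it. The *Mut* tag lay at chr17:40961877-40961903 on the plus strand, also in the 3′ UTR. The *Mtrr* tag lay at chr13:68560895-68560921 on the minus strand in the 3′ UTR. The *Pcca* tag was coding and crossed a splice junction, so that its bases fell between chr14:122876901 and 122887069 on the plus strand. The remaining 5 tags were all in annotated 3′ UTRs. Of these, the *Mtr* tag (chr13:12182929-12182955) and the *Shmt1* tag (chr11:60788365-60788391) lay outside the deposited bounds of their genes, which begin at 12186540 and 60788897, and whether these tags were the ones counted was not tested. These sequences are those of the C57BL/6J reference, and the CAST/EiJ sequence of the tags was not analysed here. Whether sequence differences changed the counts of genes in the segment was therefore not tested.

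*Cbs* was lower in *cast/cast* than in *b6/b6* hypothalamus. Its normalized count was 43.0 at the lowest, 98.0 at the median and 300.2 at the highest in *b6/b6* mice, with a mean of 112.5 ± 69.6 (SD, n = 12). In *cast/cast* mice it was 15.1, 48.2 and 78.5, with a mean of 50.3 ± 21.3 (SD, n = 12). The groups overlapped, with 5 *cast/cast* mice below every *b6/b6* mouse and 9 *b6/b6* mice above every *cast/cast* mouse. The values rest on 38 to 276 tag hits per *b6/b6* library and 14 to 86 per *cast/cast* library, so the low ones carry a sizeable counting error. The mean was 2.24 times higher in *b6/b6*, and the log2 difference (*cast/cast* minus *b6/b6*, on log2 of the normalized count plus 1) was -1.11 ± 0.28 (SE), with a 95% interval from -1.68 to -0.53. In bulk tissue, fewer cells that express *Cbs* and less *Cbs* mRNA per cell cannot be told apart. The CAST/EiJ sequence of the *Cbs* tag was not analysed. A difference in how tags of the CAST/EiJ allele were counted was thus not tested, and cannot be told apart from either.

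The highest *Cbs* counts were those of the 2 *b6/b6* libraries that stood apart, with 300.2 in mouse 12 and 196.2 in mouse 6. The next highest *b6/b6* value was 106.2. Without the 4 libraries the means were 85.4 ± 20.2 in *b6/b6* mice and 53.2 ± 21.9 in the *cast/cast* animals (SD, n = 10 each). The log2 difference was then -0.77 ± 0.25 and the ratio 1.605. The direction was thus the same in the 20 libraries that resembled one another, with a smaller difference.

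**Figure D1:**
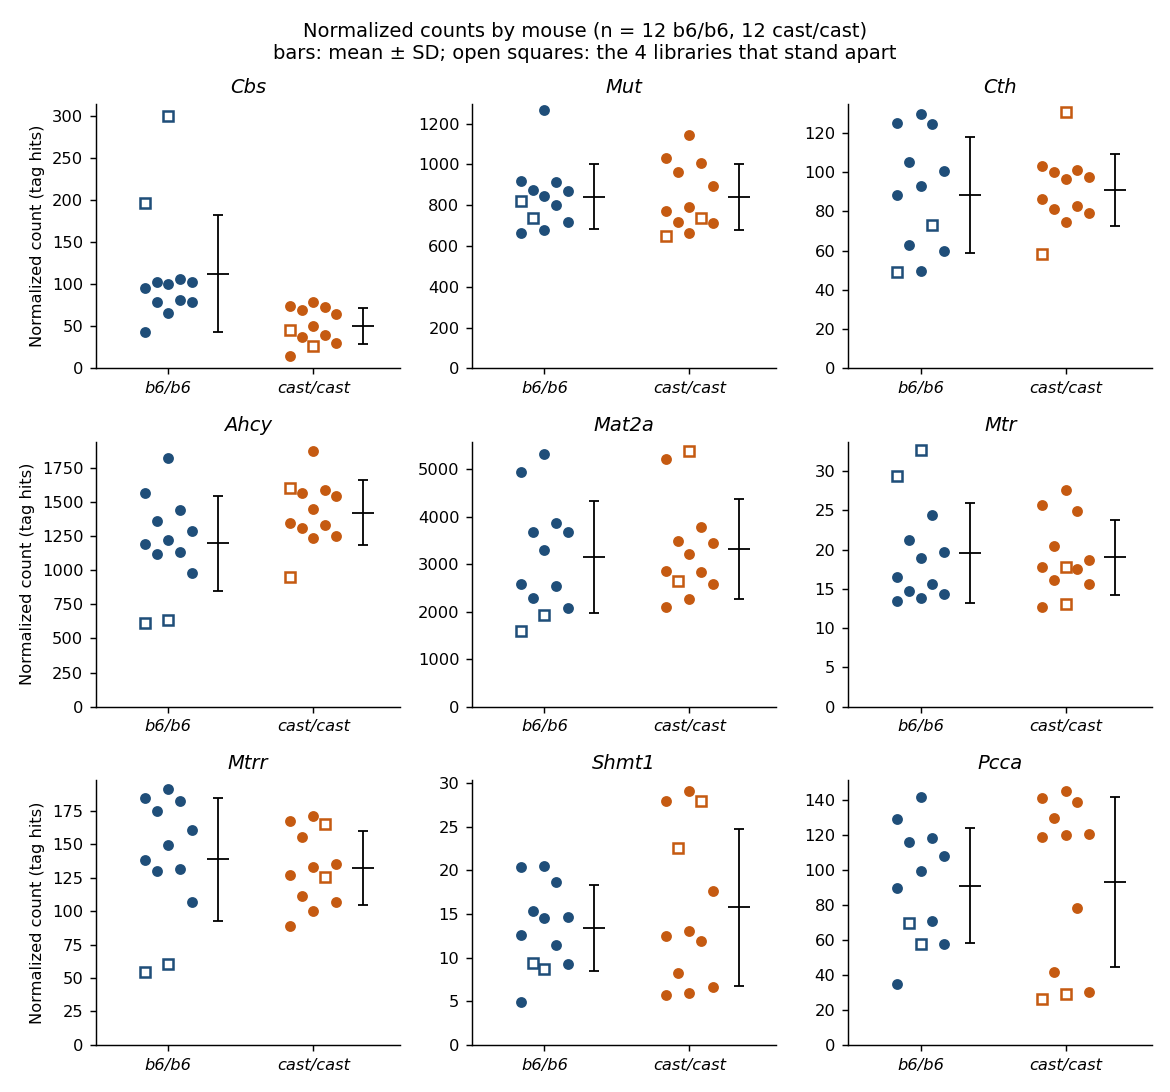
Normalized counts (vertical axes, tag hits divided by the size factor) of the 9 genes in each of 12 *b6/b6* (blue) and 12 *cast/cast* (orange) mice, with the mean ± SD as bars and the 4 libraries that stood apart as open squares. *Cbs* values lie between 43.0 and 300.2 in *b6/b6* mice and between 15.1 and 78.5 in the *cast/cast* animals, whereas the other 8 genes cover largely the same range in both genotypes.

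Genes outside the 9 were called by the thresholds of the study, an unadjusted P of at most 0.01 with a ratio of at least 1.5. Over all genes 1.49% were called in either direction and 1.01% as lower in *cast/cast*, while 25.3% of the 396 tested Chr 17 genes between 4 and 45 Mb, the stretch taken here for the CAST segment, and 0.688% of the genes off Chr 17 were called. The 9 genes are not read against these shares, since *Cbs* was chosen on this contrast. All genes split into 66 called higher and 142 called lower, or into 43 and 187 when libraries were rescaled to the same total.

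For *Cth*, the enzyme that follows *Cbs*, the interval of the difference included 0. Its normalized count was 48.9, 90.5 and 129.7 (lowest, median, highest) in *b6/b6* mice and 58.2, 91.2 and 130.8 in the *cast/cast* animals. The groups covered nearly the same range, and the log2 difference was 0.094 ± 0.18 with an interval from -0.27 to 0.46. The order of the pair differed between the genotypes, since *Cth* exceeded *Cbs* in 12 of 12 *cast/cast* mice but in 5 of 12 *b6/b6* mice.

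Among the genes of the methionine cycle, *Mat2a*, which makes S-adenosylmethionine from methionine in most tissues outside the liver, was the most abundant. Its normalized count was 1592, 2943 and 5319.6 in *b6/b6* mice and 2089.5, 3033 and 5384 in the *cast/cast* animals, a log2 difference of 0.11 ± 0.20. *Ahcy*, which cleaves S-adenosylhomocysteine to homocysteine, had counts of 614.5, 1208 and 1822 in *b6/b6* mice and 947.2, 1400.2 and 1877 in the *cast/cast* animals. The log2 difference was 0.29 ± 0.16 with an interval from -0.031 to 0.61, and the groups overlapped over most of their range. The lowest *Ahcy* values of the *b6/b6* group, 614.5 and 633.5, were those of the same 2 libraries that held the highest *Cbs* values, and without the 4 libraries the *Ahcy* difference was 0.15 ± 0.12.

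*Mtr* was scarce, at 13.5, 17.7 and 32.7 in *b6/b6* mice and 12.7, 17.8 and 27.6 in the *cast/cast* animals, with a log2 difference of -0.022 ± 0.19. Behind these values were 11 to 35 tag hits per library. *Mtrr*, the reductase that restores the active cobalamin of methionine synthase, was measured at 54.4, 143.9 and 191.2 in *b6/b6* mice and 89.0, 130.1 and 171.6 in the *cast/cast* animals. Its log2 difference was -0.00087 ± 0.19, and -0.26 ± 0.14 without the 4 libraries, since the *b6/b6* values of 54.4 and 60.7 again came from mice 12 and 6. For both genes the ranges of the genotypes overlapped.

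*Shmt1*, the cytosolic enzyme that transfers a carbon unit from serine to folate, was the least abundant of the 9 genes. It had counts of 4.91, 13.6 and 20.5 in *b6/b6* mice and 5.67, 12.8 and 29.1 in the *cast/cast* animals. From 4 to 32 tag hits per library, its log2 difference of 0.11 ± 0.29 had an interval from -0.49 to 0.70, and differences within these bounds could not be told from 0.

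On the propionate branch, *Mut* lies in the CAST segment, at chr17:40934685-40961989 on the plus strand. Its normalized count was 665.1, 831.6 and 1268 in *b6/b6* mice and 651.5, 783.9 and 1146 in the *cast/cast* animals, with means of 843.0 ± 159.8 and 841.2 ± 163.1 (SD, n = 12 each). The distributions lay on top of each other, and the log2 difference of -0.0060 ± 0.12 had the narrowest interval of the 9 genes, from -0.26 to 0.24. *Pcca*, a subunit of propionyl-CoA carboxylase upstream of *Mut*, had counts of 35.1, 94.6 and 142.1 in *b6/b6* mice and 26.1, 119.6 and 145.6 in the *cast/cast* animals. Its spread was wide in both groups, and the log2 difference was -0.12 ± 0.31.

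**Figure D2:**
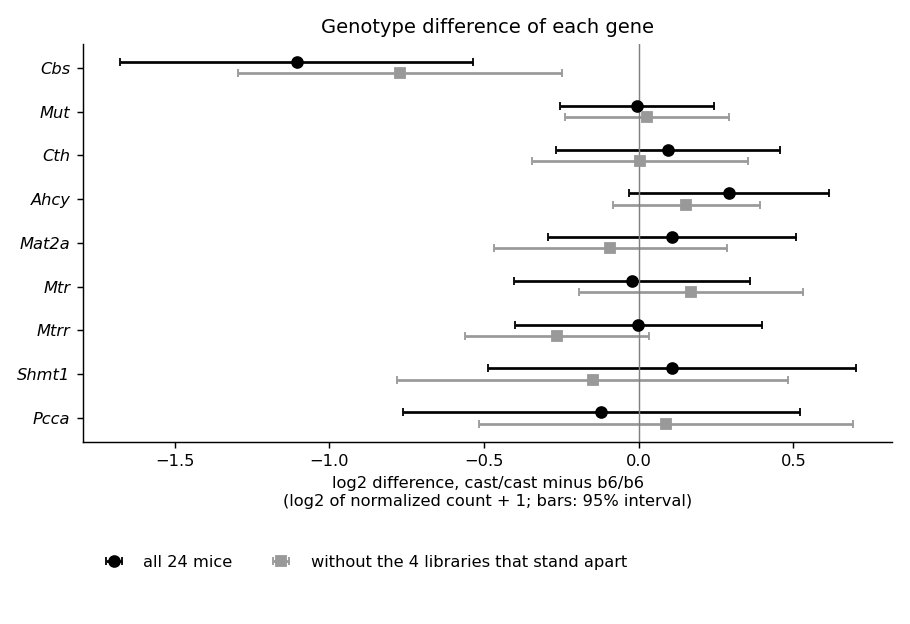
Log2 difference (*cast/cast* minus *b6/b6*, horizontal axis) of each of the 9 genes with its 95% interval, for all 24 mice (black circles) and for the 20 mice without the libraries that stood apart (grey squares). The *Cbs* interval runs from -1.68 to -0.53 for all 24 mice, and the intervals of the other 8 genes include 0 in both sets. Since *Cbs* was chosen on this contrast, the place of its interval relative to 0 or to the other genes is no test.

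In order of mean level over the 24 mice, *Mat2a* at 3232 was followed by *Ahcy* at 1309, *Mut* at 842.1, *Mtrr* at 135.6, *Pcca* at 92.4, *Cth* at 89.6, *Cbs* at 81.4, *Mtr* at 19.3 and *Shmt1* at 14.6. The place of *Cbs* differed by genotype, since its *b6/b6* mean of 112.5 stood above those of *Pcca* (91.2) and *Cth* (88.3) and its *cast/cast* mean of 50.3 below theirs (93.5 and 91.0). *Mut* exceeded *Mtrr* in all 24 mice with no overlap of their values, *Mat2a* exceeded *Ahcy* in all 24 mice, and *Ahcy* exceeded *Mut* in 21. The neighbours *Mtrr* and *Pcca* (15 mice), *Pcca* and *Cth* (14 mice), *Cth* and *Cbs* (17 mice) and *Mtr* and *Shmt1* (16 mice) did not separate beyond their spread.

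Several of the genes followed a property of the library. The normalized total, the sum of all normalized counts of a mouse, ranged from 8287368 to 10988402 in *b6/b6* mice and from 9188942 to 11731740.2 in the *cast/cast* animals. The 2 *b6/b6* libraries that stood apart had the lowest totals of all, 8287368 and 8433415, and both such *cast/cast* libraries had the highest, 11726075 and 11731740.2. The relation to this total was examined after the data were seen. After removal of the genotype means, *Cbs* was correlated negatively with this total (Pearson r = -0.67, permutation P = 0.00058, Spearman rho = -0.64, P = 0.0014, n = 24), and *Pcca* likewise (r = -0.63, P = 0.00175, rho = -0.59, P = 0.00465). *Mtrr* was correlated positively (r = 0.67, P = 0.00034, rho = 0.57, P = 0.00329), as was *Shmt1* (r = 0.52, P = 0.0145, rho = 0.55, P = 0.00937).

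In this family of 9 relations the adjusted permutation P was 0.00261 for *Cbs* and *Mtrr*, 0.00525 for *Pcca* and 0.0327 for *Shmt1* by r, and 0.0126, 0.0139, 0.0139 and 0.0211 for *Cbs*, *Mtrr*, *Pcca* and *Shmt1* by rho. *Mtr* passed by r (r = -0.47, adjusted permutation P = 0.0437) but not by rho (rho = -0.37, adjusted permutation P = 0.141). Without the 2 mice farthest from the median total, r was -0.54 for *Cbs*, 0.48 for *Mtrr*, -0.86 for *Pcca*, 0.50 for *Shmt1* and -0.22 for *Mtr*. Without the 4 libraries that stood apart it was -0.52 for *Cbs*, 0.45 for *Mtrr*, -0.82 for *Pcca*, 0.34 for *Shmt1* and -0.0071 for *Mtr*. For the total of tag hits in place of the normalized total, none of 9 relations passed, the lowest adjusted permutation P being 0.194 by r for *Mtrr*. *Mut* was not detectably related to the total (r = -0.19, permutation P = 0.388, rho = -0.24, P = 0.278). With the normalized total as a covariate, chosen after the data were seen, the log2 difference of *Cbs* was -0.73 ± 0.23.

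**Figure D3:**
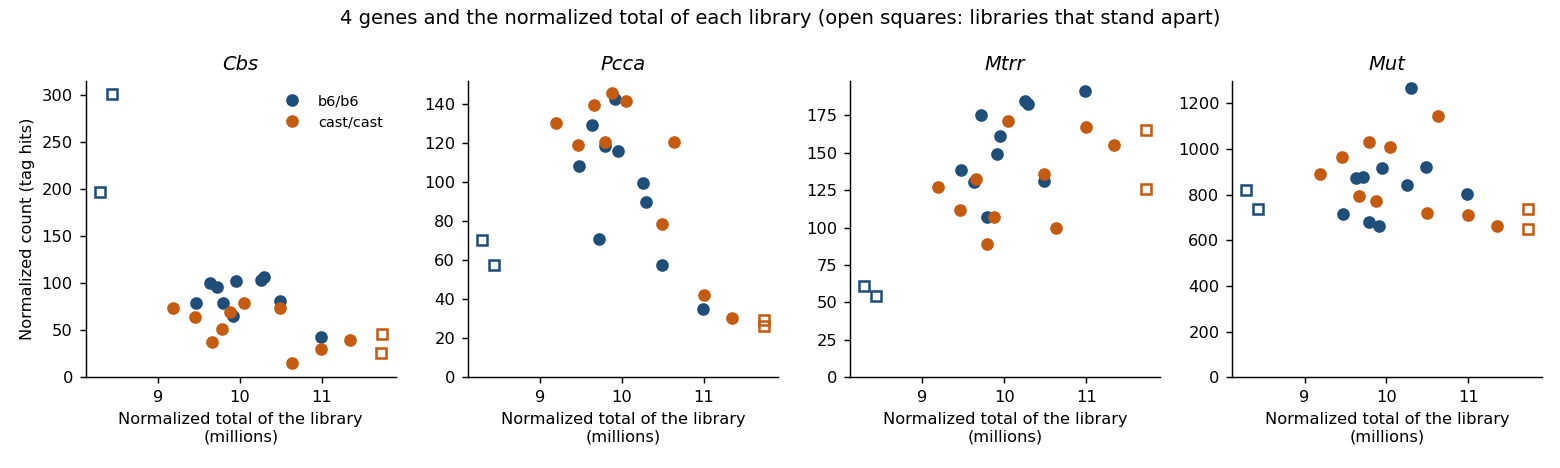
Normalized counts of *Cbs*, *Pcca*, *Mtrr* and *Mut* (vertical axes) against the normalized total of the library (horizontal axes, where 8.29 stands for 8287368 counts), with 1 point per mouse, *b6/b6* in blue, *cast/cast* in orange and the libraries that stood apart as open squares. In the 5 libraries with totals of 10988402 and above, *Cbs* lies between 26.1 and 45.7 and *Pcca* between 26.1 and 41.9. The library at 10988402 is *b6/b6* and the others are *cast/cast*, so these ranges mix genotype and total. The lowest *Cbs* value, 15.1, is in *cast/cast* mouse 1 at a total of 10632363. *Mtrr* is lowest, at 54.4 and 60.7, in the 2 libraries with the lowest totals.

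Study number was the only label that could stand for the order of testing, and *cast/cast* mice tended to have the lower ones. With study number as a covariate the log2 difference of *Cbs* was -1.19 ± 0.28, and it was -1.33 ± 0.37 among mice numbered 27 to 270, the range both genotypes share, which held 11 *cast/cast* and 6 *b6/b6* animals. For *Mtrr* the same settings gave 0.15 ± 0.17 and 0.35 ± 0.23. Within each genotype the 9 genes gave 18 correlations with study number. *Mtrr* in *b6/b6* mice increased with study number (Pearson r = 0.75, permutation P = 0.00172, adjusted P = 0.031), without passing by rank (Spearman rho = 0.70, permutation P = 0.0144, adjusted P = 0.259). The value was 0.75 without the 2 mice farthest from the median study number and 0.63 without the libraries that stood apart, and after rescaling of the libraries to the same total it no longer passed (r = 0.73, adjusted permutation P = 0.0774). The corresponding r in *cast/cast* mice was 0.28 (permutation P = 0.366, rho = 0.34, P = 0.276), and the difference between the genotypes was not tested.

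Astrocyte markers were examined beside *Cbs*. None of the 11 listed astrocyte genes was called, with or without the 4 libraries that stood apart. Their median log2 difference was 0.052 against -0.018 for all genes, and -0.12 against -0.0064 without the 4 libraries. The summed level of the list ran from 74307 to 114291 in *b6/b6* mice and from 64700 to 146376 in the *cast/cast* animals. *Gfap*, the intermediate filament of astrocytes, was at 392.7 ± 124.9 in *b6/b6* mice and 366.1 ± 119.0 in the *cast/cast* animals (SD, n = 12 each). Of the 60 markers tested in 9 lists, *Tcf7l2*, a transcription factor used here as a thalamus marker, was called, being lower in *cast/cast* (105.0 ± 57.9 against 205.7 ± 138.4, log2 difference -0.84 ± 0.29, limma P = 0.0071, adjusted P = 0.449). Without the libraries that stood apart *Tcf7l2* was again called lower (-1.11, limma P = 0.00075). The median log2 difference of the thalamus list was 0.044, and -0.32 without these libraries. By edgeR and by DESeq2 3 of the 60 markers were called, with *Tcf7l2* and the thalamus marker *Ntng1* in both, *Mag* of oligodendrocytes by edgeR and *Gad1* of neurons by DESeq2. Over all genes 2.79% were called by edgeR and 2.82% by DESeq2, against 1.49% in limma. The other 4 genes of the thalamus list were not called in limma, and the list summed to 246 to 1034 in *b6/b6* mice and 215 to 478 in the *cast/cast* animals. The part of adjoining tissue in the *Cbs* values was not tested. Pituitary markers *Prl*, *Tshb* and *Lhb*, neuronal *Map2* and choroid plexus *Otx2* were not listed.

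The other lists held no gene called in limma and gave, as summed levels, 44331 to 65760 in *b6/b6* mice and 40626 to 65914 in the *cast/cast* animals for neurons, 14213 to 47674 and 15577 to 37850 for oligodendrocytes, and 1574 to 3817 and 1953 to 5215 for microglia. Endothelial markers summed to 764 to 1934 and 705 to 1542, ependymal and choroid plexus markers to 402 to 1458 and 411 to 1957, and the 3 pituitary markers present to between 0 and 470.9 and between 0 and 330.4.

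To learn whether other genes of these pathways differed, 5 lists with 77 genes were examined, of which 69 had expression values. *Hibch*, a mitochondrial hydrolase of valine breakdown, was the single gene called (limma P = 0.0056, adjusted P = 0.402), which compares with 1.49% over all genes and 0.688% off Chr 17. Its normalized count fell from 85.1 ± 45.1 in *b6/b6* to 51.5 ± 16.4 in *cast/cast* mice, a log2 difference of -0.65 ± 0.22. It was not called without the libraries that stood apart (-0.37 ± 0.17, limma P = 0.043), nor without any 1 of *b6/b6* mice 6 or 12 or *cast/cast* mice 1, 2 or 6. No pathway gene had an adjusted P of at most 0.05 in limma, edgeR or DESeq2. An unadjusted limma P of at most 0.05 was found for 3 of the 69, all in the list of propionate and cobalamin genes. Over all genes it was found for 1138 of 13998. The pathway count was 10 by edgeR and 10 by DESeq2. The median log2 difference of the 69 genes was -0.067, and 0.012 without the libraries that stood apart.

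The list of propionate and cobalamin genes had 17 tested members, 1 lower and 0 higher, with a median of -0.21 that was -0.018 without the 4 libraries. *Cd320*, the receptor that takes up transcobalamin-bound cobalamin into cells, is the single pathway gene in the CAST segment apart from *Cbs* and *Mut*, at chr17:33843091-33849774. Its normalized count was 125.1, 172.6 and 288.4 in *b6/b6* mice and 173.3, 275.2 and 436.0 in the *cast/cast* animals, with means of 186.7 ± 52.8 and 279.5 ± 79.4. The log2 difference was 0.58 ± 0.17 (limma P = 0.00187, adjusted P = 0.214, and 0.41 without the 4 libraries), and its ratio of 1.497 lay just under the required 1.5. *Mcee*, the epimerase one step before *Mut*, was the most abundant gene of the list, at 2833 ± 1079 in *b6/b6* mice and 3077 ± 883 in the *cast/cast* animals (log2 difference 0.16 ± 0.19).

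In the folate cycle 0 of 18 tested genes were called, with a median of -0.092. *Aldh1l1*, a folate enzyme of astrocytes, was the most abundant at 1845 ± 535 and 2136 ± 897. The lowest P values were those of *Mtfmt*, which formylates the initiator tRNA of mitochondria (log2 difference 0.38 ± 0.19, limma P = 0.0533, and 0.48 without the 4 libraries), and of *Atic*, which catalyses the final steps of purine synthesis (-0.74 ± 0.44, limma P = 0.104, and -0.36 without the 4 libraries). Neither passed the thresholds. For the 9 tested genes of serine and glycine supply the median was -0.37, and 0.071 without the 4 libraries, with 0 called. *Phgdh*, the first enzyme of serine synthesis, had -0.64 ± 0.41 (limma P = 0.134) and turned to 0.12 without the 4 libraries. *Amt*, of the glycine cleavage system, had -0.76 ± 0.49 (limma P = 0.13, and -0.14 without the 4 libraries), and *Gcsh*, of the same system and the most abundant, had 3814 ± 972 and 4595 ± 1653.

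The methionine cycle list, with 0 of 10 tested genes called, had a median of 0.044. *Ahcyl1*, an AHCY-like protein, was the most abundant at 9066 ± 3085 and 9511 ± 3946. *Mat2b*, the regulatory subunit that binds MAT2A, had -0.36 ± 0.30 (limma P = 0.233, and 0.070 without the 4 libraries). In the list of transsulfuration, sulfide and glutathione genes 0 of 15 were called and the median was -0.024. *Csad*, of taurine synthesis, had -0.62 ± 0.33 (limma P = 0.0733, and -0.12 without the 4 libraries), *Mpst*, which makes hydrogen sulfide from mercaptopyruvate, had -0.55 ± 0.32 (limma P = 0.0972, and -0.62 without the 4 libraries), and *Got1*, the most abundant gene, was at 23465 ± 5818 and 25298 ± 3479. The genes *Mthfs*, *Ftcd*, *Dmgdh*, *Mat1a*, *Bhmt*, *Bhmt2*, *Gnmt* and *Amd1* were not listed by these symbols.

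**Figure D4:**
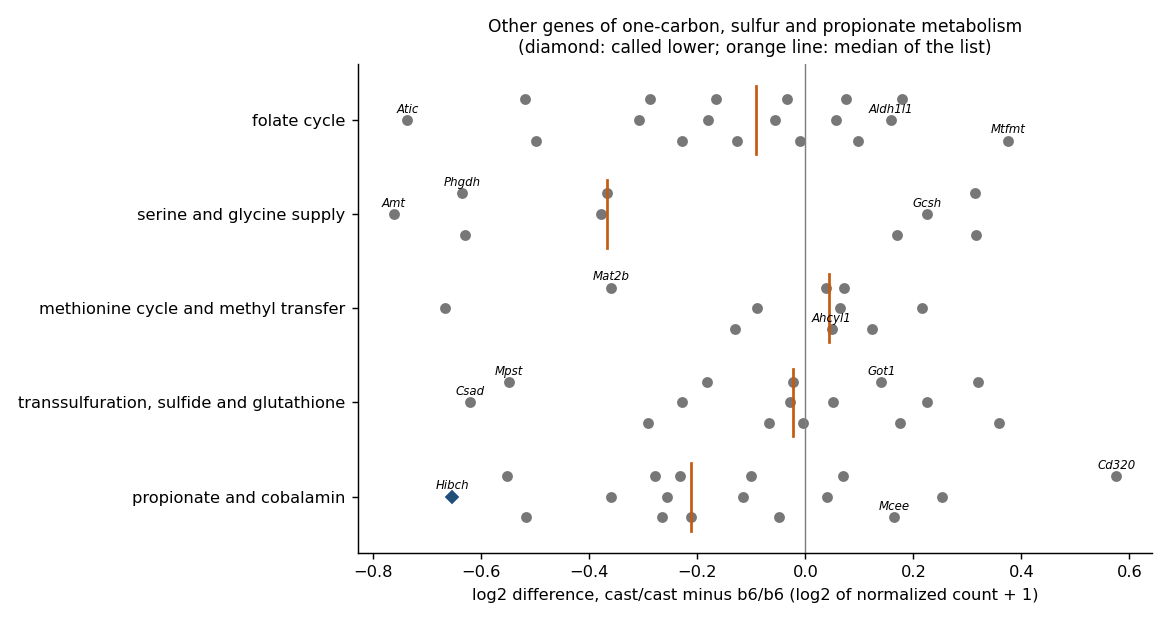
Log2 difference (*cast/cast* minus *b6/b6*, horizontal axis) of the 69 tested genes in 5 lists of related pathways, with 1 point per gene and the median of each list as an orange line. *Hibch* at -0.65 is the called gene (diamond), *Cd320* at 0.58 is the highest, and the list medians lie between -0.37 and 0.044.

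In the neighbourhood of *Cbs*, which spans chr17:31612623-31637205 on the minus strand, 12 other tested genes lay within 500 kb. Of these 2 were called higher and 2 lower in *cast/cast*, against 25.3% called of the Chr 17 genes between 4 and 45 Mb. *Rsph1*, a radial spoke protein of motile cilia, rose from 42.1 ± 15.1 to 248.3 ± 72.1 (log2 difference 2.60 ± 0.23, adjusted limma P = 5.43e-09), and *Hsf2bp*, a meiotic recombination factor that binds HSF2, rose from 16.6 ± 7.53 to 59.6 ± 20.5 (1.83 ± 0.25, adjusted limma P = 1.62e-05). *Pde9a*, a cyclic GMP phosphodiesterase, fell from 287.9 ± 94.7 to 164.1 ± 111.3 (-1.01 ± 0.26, adjusted limma P = 0.109). *Sik1*, a salt-inducible kinase, fell from 57.9 ± 19.5 to 37.3 ± 9.73 (-0.60 ± 0.20, adjusted limma P = 0.385), and was not called without any 1 of *b6/b6* mice 3, 6, 7 or 9 or *cast/cast* mouse 1.

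The genes next to *Cbs* on either side were not called. *Pknox1*, a homeobox factor 4.93 kb away, had a log2 difference of 0.20 ± 0.39, and *U2af1*, a splicing factor 9.88 kb away, had 0.12 ± 0.38. Without the 4 libraries *U2af1* was called higher (0.70). Near *Mut* the single tested gene within 500 kb was *Cenpq*, which encodes a centromere protein and lies 134 bp from *Mut* on the opposite strand, with a log2 difference of 0.26 ± 0.33. On the other side the nearest tested gene was *Cd2ap*, an adaptor protein 1831 kb away, with -0.28 ± 0.22.

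**Figure D5:**
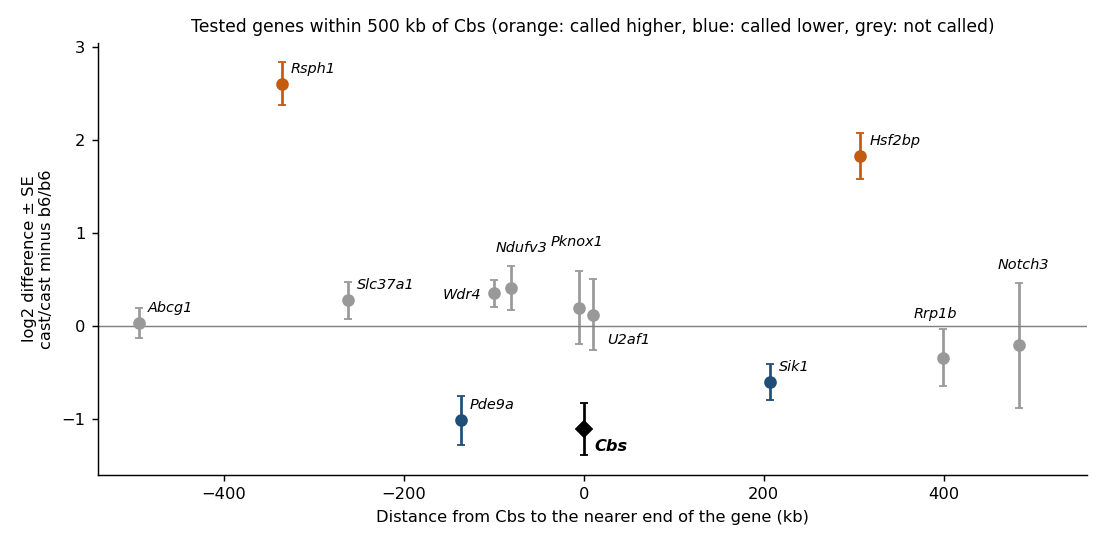
Log2 difference ± SE (vertical axis) of the 12 tested genes within 500 kb of *Cbs* against their distance from it in kb (horizontal axis), with *Cbs* as a black diamond at 0. *Rsph1* at 2.60 and *Hsf2bp* at 1.83 were called higher, *Pde9a* and *Sik1* lower, and the adjoining *Pknox1* and *U2af1* lie near 0.

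Intake was examined within each genotype, where it did not enter the choice of the genes. In 36 correlations of the 9 genes with C/P kcal and total kcal over 10 d, none passed at an adjusted P of 0.05, and 3 had an unadjusted permutation P of at most 0.05 by r. These were *Ahcy* with C/P kcal in *b6/b6* mice (r = 0.71, permutation P = 0.0103, rho = 0.60, P = 0.0411, adjusted P = 0.288 and 0.613), *Mut* with total kcal in *cast/cast* mice (r = 0.68, permutation P = 0.016, rho = 0.64, P = 0.0297, adjusted P = 0.288 and 0.613) and *Mtrr* with total kcal in *cast/cast* mice (r = -0.61, permutation P = 0.0355, rho = -0.53, P = 0.0804, adjusted P = 0.426 and 0.711). Without the 2 mice of most extreme intake r was 0.55, 0.54 and -0.37. Other values of r grew when mice were left out. For *Ahcy* with total kcal in *cast/cast* mice r was 0.38 (permutation P = 0.229, rho = 0.47, P = 0.129), 0.70 without the 2 farthest mice and 0.83 without the libraries that stood apart. For *Shmt1* with C/P kcal in *b6/b6* mice r was -0.20 (permutation P = 0.519, rho = -0.32, P = 0.312), and -0.75 and -0.72 in these subsets, which were not tested. For *Cbs* with C/P kcal r was -0.49 in *b6/b6* (permutation P = 0.107, rho = -0.16, P = 0.621) and -0.14 in *cast/cast* mice (permutation P = 0.676, rho = -0.48, P = 0.115), with an adjusted P of at least 0.483 in each. Without the 2 farthest mice the *b6/b6* value was -0.028, and without the libraries that stood apart 0.32. The relation to intake did not differ detectably between genotypes for any gene in 18 permutation tests, the lowest adjusted P being 0.162 for *Ahcy* with C/P kcal.

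Across mice of the same genotype the 9 genes formed 36 pairs, none of which passed at an adjusted P of 0.05. The strongest were *Cth* with *Ahcy* (r = 0.63, permutation P = 0.00305, rho = 0.61, P = 0.00378, adjusted P = 0.0736 and 0.129), *Cbs* with *Shmt1* (r = -0.57, permutation P = 0.00409, rho = -0.55, P = 0.00717, adjusted P = 0.0736 and 0.129) and *Mat2a* with *Mtr* (r = -0.56, permutation P = 0.00628, rho = -0.50, P = 0.0169, adjusted P = 0.0754 and 0.203). Without the 2 mice farthest on the first gene of each pair r was 0.53, -0.51 and -0.59. The lowest adjusted P without the libraries that stood apart was 0.436. *Cbs* and *Cth*, which act in sequence, gave r = -0.27 (permutation P = 0.217, rho = -0.35, P = 0.0954), with -0.62 among *b6/b6* and 0.31 among *cast/cast* mice. *Mut* and *Pcca* gave r = 0.41 (permutation P = 0.0543, rho = 0.37, P = 0.0935), with -0.14 among *b6/b6* and 0.73 among *cast/cast* mice. The differences between the genotypes were not tested.

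The genes whose within-genotype deviations most resembled those of *Cbs* over the 24 mice, among 9995 genes with a mean of at least 50, were *Mapk8ip2* (r = 0.90), *Mink1* (r = 0.86), *Vstm2l* (r = 0.86), *Gm88* (r = 0.85) and *Kif17* (r = 0.85). Without the 4 libraries that stood apart these values were 0.82, 0.84, 0.78, 0.79 and 0.77. None of the 5 genes was called between the genotypes, though each was lower in *cast/cast*, with log2 differences of -0.68, -0.68, -0.76, -0.39 and -0.34 in this order. For *Mut* they were *Rab14* (r = 0.77), *Zfp62* (r = 0.73), *Msh3* (r = 0.73), *Sfrp5* (r = 0.72) and *D3Ertd751e* (r = 0.70), and none was called. These coefficients describe libraries that share their composition and normalized total, and carry no test.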

How the data were processed

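Hypothalamic RNA of 24 separate mice was profiled by SAGE-Seq, in which a transcript is read as one 27-bp tag near its 3′ end. The authors aligned tags with a modified SOLiD SAGE software to RefSeq mRNA and GRCm38/mm10 and divided tag hits by DESeq size factors. The deposited signal values are these normalized counts, of which 100% in every library were whole multiples of a step (tolerance 0.05 tag hits), so whole tag hits were recovered. The table had 19529 rows for 13998 genes, and the lowest gene mean was 6.03. Rarer genes were not analysed here. Its means, fold changes and P values, which are comparisons by the authors, were not used. No sample column was left unmapped. Totals were 7754202 to 13082873 tag hits. Intervals from counts would cover counting error only, since tags carry no molecular identifiers. Chi-square divided by its degrees of freedom was at least 14.7 in all 276 pairs of libraries, well above sampling noise.

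All genes (mean at least 5) were fitted by genotype in limma 3.58.1 with a mean trend of the variance, after log2 transformation of the normalized count + 1, with Benjamini-Hochberg adjustment over all genes. A gene was called at a limma P, before adjustment, no higher than 0.01 with means differing at least 1.5-fold in the same direction. Correlations used two-sided permutation tests with 100000 resamples and adjustment within each family. The members and gene lists were chosen with earlier results of these data known. Named besides the 9 members were, in each pathway list, called genes, the most abundant gene and the 2 with the lowest P, near *Cbs* and *Mut* the called genes within 500 kb and the nearest on each side, the 5 genes most alike to each, and markers called or absent, with *Gfap* added after its values were seen. The result of 1 gene that this rule names is not reported here. Alternatives were pseudocounts of 0.5 and 5, minimum means of 20 and 0, rescaled totals, edgeR 4.0.16, DESeq2 1.42.0, study number as a covariate, its shared range, normalized total as a covariate (added after the data were seen), an adjusted P of at most 0.05, and leaving out libraries. Scripts were tested on simulated data. Tags came from GENCODE vM21 (GRCm38). Software was R 4.3.3, Python 3.11.15, SciPy 1.17.1 and Matplotlib 3.10.9.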

Additional observations from a re-analysis of the deposited data

How the results depend on the processing

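The log2 difference of *Cbs* was -1.21 to -0.96 when each mouse was left out in turn. A threshold of an adjusted P of at most 0.05 leaves this difference at -1.11 and puts 0 of 9 members past it, against 1 by the thresholds of the study, and neither count is support, since *Cbs* was chosen on this contrast. *Mtr* and *Shmt1* had no value at a minimum mean of 20. The count of called pathway genes, 1 of 69, was 2 with edgeR, DESeq2 (*Hibch* and *Csad* in both) and in the shared range of study numbers (*Hibch* and *Cd320*), 0 without the libraries that stood apart, at an adjusted P of at most 0.05 and with the normalized total as a covariate, and 0 to 2 when each mouse was left out. *Cd320* was called without any 1 of 8 mice. The 1 correlation with study number that passed became 0 after rescaling. The counts for intake and for pairs of members stayed at 0 under the alternatives run for them, and the relations to library totals were not recomputed as counts under other settings.

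Uncalled genes changed sign as follows, for genes named in the pathway lists and near *Cbs* and *Mut*, with the members given last. Without the libraries that stood apart the log2 difference was -0.017 for *Aldh1l1*, 0.12 for *Phgdh*, 0.070 for *Mat2b*, -0.25 for *Ahcyl1*, -0.028 for *Got1* and -0.11 for *Mcee*. With the normalized total as a covariate it was -0.089 for *Aldh1l1*, 0.063 for *Phgdh*, 0.028 for *Amt*, -0.029 for *Gcsh*, 0.11 for *Mat2b*, -0.28 for *Ahcyl1* and -0.12 for *Mcee*. *Ahcyl1* was -0.043 after rescaling and between -0.023 and 0.11 when each mouse was left out. With study number as a covariate *Pknox1* was -0.012 and *U2af1* -0.12, and in the shared range *Pknox1* was -0.41, *U2af1* -0.52, *Mpst* 0.10 and *Cd2ap* 0.16. *U2af1* was -0.58 with edgeR and -0.059 with DESeq2. Without the libraries that stood apart *Mat2a* was -0.092, *Mtr* 0.17, *Shmt1* -0.15, *Pcca* 0.089 and *Mut* 0.026. With the normalized total as a covariate these members were -0.041, 0.11, -0.17, 0.27 and 0.032. In the shared range *Cth* was -0.093, *Mut* 0.18 and *Mtrr* 0.35. With study number as a covariate *Mut* was 0.019 and *Mtrr* 0.15. *Pcca* was 0.034 with edgeR and 0.037 with DESeq2. *Mtr*, *Mtrr*, *Mut*, *Pcca* and *Shmt1* took both signs when each mouse was left out. The causes were not tested. Over all genes 208 were called, against 391 with edgeR, 395 with DESeq2, 610 in the shared range, 312 with study number as a covariate and 80 at an adjusted P of at most 0.05.

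Replicate numbers followed accession order and paired no mice. Which members depth limits most was not tested. The separate parts of the libraries that stood apart, study number and normalized total in the *Cbs* difference were not tested.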
